A study of Mus musculus with 22 samples.

Results

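A weak response of mouse bone marrow-derived macrophages (BMDM) to lipopolysaccharide (LPS) was described in 8 of the 22 Clariom S arrays of the study, whose LPS arrays carried little Nos2 message. Of these, 4 had received LPS (LPS 3, LPS 6, HMB+LPS 5 and HMB+LPS 6) and 4 had not (Ctrl 5, Ctrl 6, HMB 5 and HMB 6), and the number is the replicate number in the label. LPS 3 and LPS 6 were chosen by their Nos2 level, as the only 2 of 5 LPS arrays under 10 log2 units, while the other 6 arrays were taken by their number. Nos2, the inducible nitric oxide synthase, was 5.64 in LPS 3 and 5.74 in LPS 6. In LPS 2, LPS 4 and LPS 5, it lay far above that value, at 16.18, 16.29 and 16.25. It was 9.85 in HMB+LPS 5 and 9.78 in HMB+LPS 6, also under 10, against 15.88, 15.89 and 16.60 in HMB+LPS 2, 3 and 4. Because the arrays were selected on a low response, the low level of Nos2 and of genes that move with it is a description, and the comparison of all 4 LPS arrays with the 4 arrays without LPS is given as differences and counts with no test of single genes.

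All cells were grown from marrow of C57/bl6 mice in medium conditioned by L929 cells, a source of macrophage colony-stimulating factor. Ctrl arrays held M0 macrophages with neither agent, and HMB arrays held M0 macrophages given 1 mM β-hydroxy-β-methylbutyrate (HMB), which cells make from leucine, for 48 h. LPS arrays held macrophages given 10 ng/ml LPS for 48 h, and HMB+LPS arrays held macrophages given both agents. The study asked whether HMB promotes M1-like polarization, the inflammatory state that LPS induces. The labels do not say whether replicates were separate animals or separate cultures, and the spread that the p-values rest on is that between arrays and may be technical.

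LPS is recognized by TLR4 with its partners CD14 and MD-2 (Ly96). One branch of the signal runs through MYD88 to NF-kB and induces cytokines, chemokines and Nos2. The other branch runs through TICAM1 (TRIF) to interferon regulatory factors and type I interferon, which acts back on the cells through its receptor and induces interferon-stimulated genes. Osteoclasts, the bone-resorbing relatives of macrophages, use the acid phosphatase Acp5 (TRAP), the protease cathepsin K (Ctsk) and the proton pump subunit Atp6v0d2, and cultured macrophages can carry some of these messages.

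The 8 arrays were more alike within a group than others of the study. Both arrays of a group differed by a median of 0.25 to 0.29 log2 units over 22206 tested probe sets, against 0.32 to 0.60 for the 18 pairs among the other 14 arrays and 0.44 to 0.78 for the 28 pairs with 1 array of each kind. The numbers did not follow this division throughout: LPS 5 carried the full Nos2 level although Ctrl 5, HMB 5 and HMB+LPS 5 are among the 8 arrays, and LPS 3 was low although the other arrays numbered 3 are not. Whether the labels of LPS 3 and LPS 5 were exchanged was not tested, and every value of LPS 3 stands under its label as given. Macrophage markers were high on all 8 arrays, with Adgre1 (F4/80) from 15.82 to 17.42, Csf1r from 16.45 to 16.84 and the transcription factor Spi1 from 17.49 to 17.73. The file gives no detection calls, so signals were set against the 95th percentile of the negative control probe sets, which lay between 9.79 and 10.36 on the 8 arrays. The median of the negative controls (6.03 to 6.37) was above that of the tested probe sets (5.89 to 5.95). A probe set under that limit on all 8 arrays was called dim (14708 of 22206) and gets levels but no difference. Where a gene was under the limit on both arrays of 1 group of a comparison, its difference is one of signals, and a lower bound, the other group's mean against the limit, is given beside it ("at least") where it is above 0.

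Of the interferon-stimulated genes described next, 5 have been chosen to show the sequence upstream of the start site, together with Irf7, whose message rose and whose window holds no match. Capitals mark the letters GAAA, any 2 bases and GAAA again, the core of the interferon-stimulated response element (ISRE), on either strand (TTTC, any 2 bases and TTTC where it lies on the opposite strand), and matches that overlap run together. The sequences are the 250 bases upstream of the first listed start site in RefSeq, build GRCm38.p6, written 5′ to 3′ along the gene.
Ifit3, chr19:34583279-34583528, + strand: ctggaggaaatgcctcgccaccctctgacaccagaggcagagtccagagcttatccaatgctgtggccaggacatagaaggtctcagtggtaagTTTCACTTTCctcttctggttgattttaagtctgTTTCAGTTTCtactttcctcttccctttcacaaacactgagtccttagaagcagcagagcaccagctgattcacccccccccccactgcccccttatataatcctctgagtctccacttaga
Ifit1, chr19:34640639-34640888, + strand: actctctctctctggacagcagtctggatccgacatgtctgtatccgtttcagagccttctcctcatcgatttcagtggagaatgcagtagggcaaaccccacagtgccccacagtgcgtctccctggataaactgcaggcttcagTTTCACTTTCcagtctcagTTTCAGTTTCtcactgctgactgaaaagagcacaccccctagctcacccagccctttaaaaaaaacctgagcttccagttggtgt
Isg15, chr4:156200819-156201068, - strand: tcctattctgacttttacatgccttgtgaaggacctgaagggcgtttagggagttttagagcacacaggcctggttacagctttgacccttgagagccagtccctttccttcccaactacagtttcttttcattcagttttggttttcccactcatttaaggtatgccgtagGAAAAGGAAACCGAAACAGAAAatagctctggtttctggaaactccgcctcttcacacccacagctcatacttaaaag
Gbp2, chr3:142620413-142620662, + strand: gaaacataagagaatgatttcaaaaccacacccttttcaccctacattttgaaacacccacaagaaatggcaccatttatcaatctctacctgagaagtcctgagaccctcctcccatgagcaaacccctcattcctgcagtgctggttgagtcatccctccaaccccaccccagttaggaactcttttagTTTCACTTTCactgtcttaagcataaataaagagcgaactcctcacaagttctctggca
Gbp7, chr3:142530086-142530335, + strand: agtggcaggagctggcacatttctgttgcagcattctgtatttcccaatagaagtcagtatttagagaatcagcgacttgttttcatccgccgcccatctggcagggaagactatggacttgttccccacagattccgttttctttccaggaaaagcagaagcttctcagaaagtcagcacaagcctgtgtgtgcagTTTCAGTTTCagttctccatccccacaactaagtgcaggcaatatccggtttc
Irf7, chr7:141266425-141266674, - strand: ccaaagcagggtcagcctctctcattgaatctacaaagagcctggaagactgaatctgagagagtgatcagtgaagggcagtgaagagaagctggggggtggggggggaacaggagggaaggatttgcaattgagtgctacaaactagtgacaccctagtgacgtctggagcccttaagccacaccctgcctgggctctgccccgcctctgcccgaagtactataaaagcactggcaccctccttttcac

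Of all 27025 genes with such a window, 936 (3.46%) held the ISRE letters. They were found in 13 of the 28 type I interferon-stimulated genes with an entry (46.4%) and in 10 of the 11 interferon-inducible GTPase genes with an entry (90.9%). Ifit3 and Ifit1 each held 2 matches, Isg15 held 3 that overlap, Gbp2 and Gbp7 held 1 each, and Irf7 and Oasl1 held 0, as did Acp5, Ctsk, Marco and Lcn2, while Saa3 held 1. The chemokine genes showed the NF-kB letters, GGGA and TTCC with any 2 bases between them on either strand, in 4 of 16 windows (Cxcl1, Cxcl2, Cxcl3 and Cxcl10), against 1.36% of all genes. A match describes the letters of the window and is not evidence of binding.

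Over the 4 arrays with LPS and the 4 without, with HMB as a term, 461 probe sets were called higher (2.08% of those tested) and 374 lower (1.68%) by limma with Benjamini-Hochberg adjustment at a threshold of 0.05. The 4 arrays with LPS lay all above the 4 without for 945 probe sets (4.26%) and all below for 1032 (4.65%). The largest differences of signal among named genes that met both conditions and were not dim belonged to the siderophore-binding protein Lcn2, the scavenger receptor Marco, the membrane protein Susd2, Acp5, Saa3, the betaine transporter Slc6a12, complement factor B (Cfb), Ctsk, Ms4a4c and Ly6i. The count of 835 in both directions rested on single arrays: it was 227 without HMB 5, 226 without HMB 6, 252 without HMB+LPS 5, 314 without HMB+LPS 6, 443 without Ctrl 5, 531 without Ctrl 6, 511 without LPS 6 and 627 without LPS 3.

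Tests of single genes were taken from HMB+LPS 5 and 6 minus HMB 5 and 6, arrays that were set by their numbers, and from the comparison of these arrays with the lower numbers. Their low Nos2 level was known when these arrays were taken, and the p-values make no allowance for that choice. The spread behind HMB+LPS minus HMB was fitted over all 8 arrays. LPS 3 and LPS 6, which were chosen on Nos2, therefore enter its SE and p-values. A fit of the 4 arrays with HMB alone made 339 calls, against 1245 in the fit used. In HMB+LPS minus HMB, called "with HMB" for short, 641 probe sets rose (2.89%) and 604 fell (2.72%), and in LPS 3 and 6 minus Ctrl 5 and 6 the same fit called 113 higher (0.509%) and 10 lower (0.045%). These shares are the background for the list counts below, as are 2.08% higher and 1.68% lower for counts over the 8 arrays. Of the 641 that rose with HMB, 102 were also called higher without it, which is 15.9% of the first list and 90.3% of the second, and 573 had the same sign. Of the 604 that fell, 8 were also called lower without HMB (1.32% and 80%), 1 was called higher and 545 had the same sign. The 2 comparisons share no array, but they come from 1 fit with 1 spread per probe set, so their calls are not independent. Across all tested probe sets their differences had r = 0.43, where probe sets are not independent replicates. The 1245 calls with HMB fell to 289 without HMB 5, 312 without HMB 6, 545 without HMB+LPS 5 and 349 without HMB+LPS 6. The 123 calls without HMB fell to 9 without Ctrl 5, 6 without Ctrl 6, 19 without either LPS array, 61 without either HMB array and 56 without either HMB+LPS array.

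**Figure D1:**
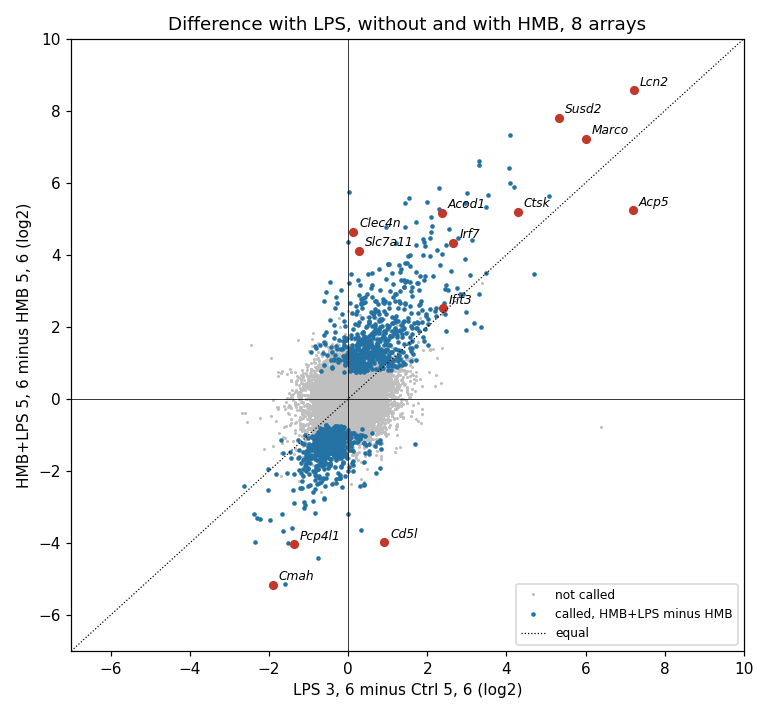
Each point is 1 of 22206 tested probe sets, with the log2 difference LPS 3, 6 minus Ctrl 5, 6 on the horizontal axis and HMB+LPS 5, 6 minus HMB 5, 6 on the vertical axis. Blue points passed the test in HMB+LPS minus HMB, red points are named genes, and the dotted line marks equal differences; Lcn2, Marco, Susd2, Acp5 and Ctsk lie far out on both axes, while Clec4n and Slc7a11 lie high on the vertical axis only.

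Type I interferon-stimulated genes moved together. Of 37 matched genes, 22 rose and 0 fell in HMB+LPS minus HMB, where 2.89% of all probe sets rose, and 15 were called higher in LPS minus Ctrl, where the background was 0.509%. On the 8 arrays as a whole 31 of 37 were called higher, beside 2.08% of all probe sets. For 30 of 37 the 4 LPS arrays lay all above the rest, beside 4.26% of all probe sets. The median log2 difference of the list was 1.15 over the 8 arrays and 1.00 in HMB+LPS minus HMB, against −0.02 over all probe sets in both. The mean log2 level of the list ran from 10.92 to 11.40 without LPS and from 12.17 to 12.64 with it, so the arms did not overlap.

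Ifit3, an antiviral effector that binds viral RNA complexes with Ifit1, was 12.42 and 12.18 in Ctrl 5 and 6, 11.17 and 11.32 in HMB 5 and 6, 14.74 and 14.64 in LPS 3 and 6, and 13.81 and 13.72 in HMB+LPS 5 and 6. All 4 arrays with LPS lay above all 4 without, and the difference was 2.46 ± 0.13 (SE) over the 8 arrays. With HMB Ifit3 rose by 2.52 ± 0.17 (limma, adjusted p = 9.38e-04). Its difference without HMB was 2.39. Ifit1, from the same family, ran from 9.54 to 10.33 on the arrays without LPS and from 12.14 to 12.40 with LPS, and it rose by 2.51 ± 0.17 with HMB (at least 1.84, adjusted p = 8.86e-04). Usp18, which removes ISG15 from proteins and restrains interferon receptor signalling, was 11.99, 11.87, 11.63 and 11.83 in Ctrl 5, Ctrl 6, HMB 5 and HMB 6, and 13.97, 13.95, 13.99 and 13.91 in LPS 3, LPS 6, HMB+LPS 5 and HMB+LPS 6. It rose by 2.22 ± 0.17 in HMB+LPS minus HMB (adjusted p = 0.00136).

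Zbp1, a sensor of Z-form nucleic acid, ran from 6.81 to 8.40 without LPS and from 10.24 to 11.03 with it, a difference of 3.07 over the 8 arrays (at least 0.55) and a rise of 3.55 ± 0.26 with HMB (at least 0.13, adjusted p = 0.00117). Isg15, the ubiquitin-like modifier, was 8.55 and 8.53 in Ctrl, 7.69 and 7.85 in HMB, 10.51 and 10.43 in LPS, and 9.77 and 9.68 in HMB+LPS. Only the LPS pair passed the limit of the negative controls, so no size is given for HMB+LPS minus HMB, where the rise had an adjusted p of 0.00187. Oasl1, an interferon-induced regulator of Irf7 translation in mice, ran from 6.01 to 7.38 without LPS and from 8.97 to 10.39 with it (adjusted p = 0.00167), and only LPS 6 passed the limit. The 6 list members not called over the 8 arrays were Ifi44l, which was dim, and Ifi27, Ifi27l2a, Ifi35, Slfn8 and Samd9l, whose differences in that order were −0.08, 0.18, 0.47, 0.79 and 0.37.

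Irf7, the interferon regulatory factor that amplifies type I interferon production, was 13.20 and 13.45 in Ctrl 5 and 6, 12.13 and 12.37 in HMB 5 and 6, 15.90 and 16.08 in LPS 3 and 6, and 16.65 and 16.53 in HMB+LPS 5 and 6. The arms were far apart, with a difference of 3.5 ± 0.33 over the 8 arrays and a rise of 4.34 ± 0.19 with HMB (adjusted p = 1.87e-04). Among 27 interferon regulators and nucleic acid sensors 5 rose and 1 fell with HMB, beside 2.89% and 2.72% of all probe sets. The 1 that fell was Tlr9, a receptor for unmethylated DNA. Those that rose included the signal transducer Stat2 (0.95 ± 0.18, adjusted p = 0.0295), the kinase Jak2 (1.31 ± 0.18, adjusted p = 0.0113) and Ddx58 (RIG-I, a sensor of viral RNA, 1.71 ± 0.17, adjusted p = 0.00347). Ifnb1, interferon beta itself, lay between 2.58 and 3.71 on all 8 arrays and was dim, with an adjusted p of 0.961, after 48 h of LPS.

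The interferon-inducible GTPases, which act on the vacuoles of intracellular pathogens, included Gbp7 at 9.23 and 9.47 in Ctrl, 7.29 and 6.96 in HMB, 11.77 and 12.05 in LPS, and 11.81 and 11.89 in HMB+LPS. Its levels with LPS were alike with and without HMB, and the difference was 3.64 ± 0.41 over the 8 arrays (at least 1.81) and 4.72 ± 0.20 with HMB (at least 1.54, adjusted p = 1.87e-04). Gbp2 ran from 8.94 to 9.25 without LPS, 10.94 and 10.90 in LPS, and 11.99 and 11.94 in HMB+LPS, and it rose by 3.01 ± 0.17 with HMB (at least 1.65, adjusted p = 5.21e-04). Gbp3 rose by 2.30 ± 0.18 (at least 0.89, adjusted p = 0.00144). Of 12 matched GTPase genes 9 were called higher over the 8 arrays and 5 rose with HMB, with 0 in the other direction in both. The shares over all probe sets were 2.08% and 2.89%.

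The interferon counts depended on which arrays gave the spread. The 31 calls over the 8 arrays became 20 without HMB+LPS 5, 27 without LPS 3 and 18 without a term for HMB. With 8 group means fitted over all 22 arrays, 0 of the 37 interferon-stimulated genes and 1 of the 12 GTPases passed in HMB+LPS minus HMB, and 2 of the 27 regulators rose. On the other 14 arrays the mean log2 level of the interferon-stimulated list ran from 9.37 to 12.92 without LPS and from 11.63 to 12.36 with it, so those arrays spread more and their arms overlapped. Within the 4 arrays with HMB alone 11 of the 37 passed in HMB+LPS minus HMB. Leaving out HMB 5 or HMB 6 left 10 of the 22, and leaving out HMB+LPS 5 or HMB+LPS 6 left 11, while any of these 4 left 2 of the 5 regulators. The 15 calls in LPS minus Ctrl became 0 without Ctrl 5, Ctrl 6 or LPS 6, 1 without LPS 3, 9 without any 1 of the arrays with HMB, 0 with the fit of 8 means and 33 with the filter on dim probe sets.

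**Figure D2:**
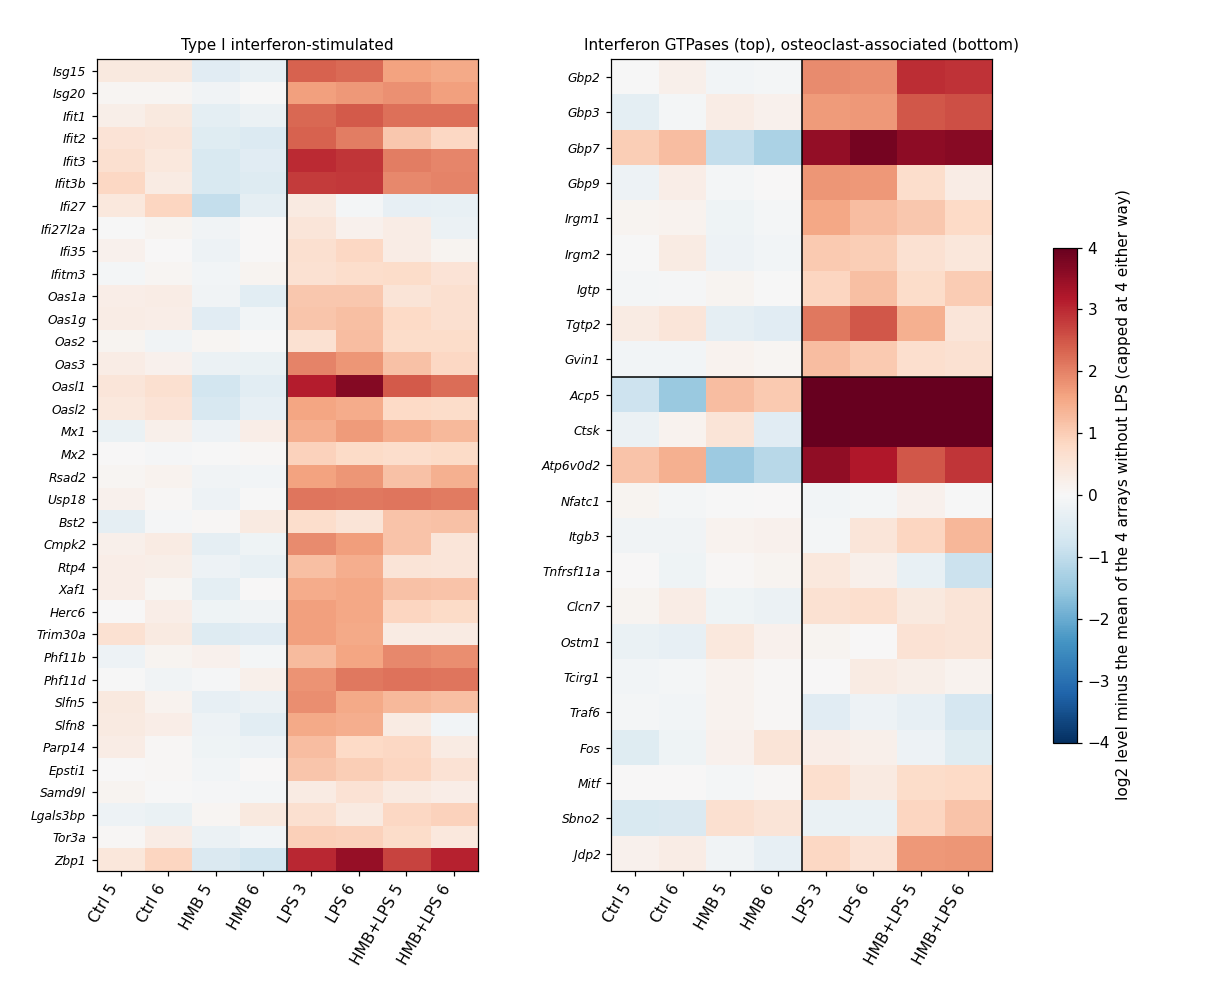
The colour gives the log2 level of each gene (rows) on each of the 8 arrays (columns) minus its mean over the 4 arrays without LPS, capped at 4 in either direction, and dim genes are left out. Nearly all interferon-stimulated genes and interferon-inducible GTPases are redder on the 4 LPS arrays to the right of the line, whereas in the osteoclast-associated list Acp5, Ctsk and Atp6v0d2 stand out from pale neighbours such as Nfatc1 and Tcirg1.

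Acp5 was the largest riser of the osteoclast-associated list. It was 8.42 and 7.76 in Ctrl 5 and 6, 10.48 and 10.30 in HMB 5 and 6, 15.25 and 15.34 in LPS 3 and 6, and 15.64 and 15.61 in HMB+LPS 5 and 6. The 4 LPS arrays lay close together, and among the arrays without LPS both HMB arrays lay above both Ctrl arrays, which were under the limit. The difference was 6.22 ± 0.39 over the 8 arrays, 7.20 without HMB (at least 5.46) and 5.23 ± 0.24 with HMB (adjusted p = 2.47e-04). Ctsk was 6.14 and 6.51 in Ctrl, 6.87 and 5.92 in HMB, 10.61 and 10.60 in LPS, and 11.83 and 11.35 in HMB+LPS, and it rose by 5.20 ± 0.34 with HMB (at least 1.28, adjusted p = 8.57e-04). Atp6v0d2 was 12.18 and 12.46 in Ctrl, 9.57 and 9.91 in HMB, 14.56 and 14.24 in LPS, and 13.53 and 13.89 in HMB+LPS. It rose by 3.97 ± 0.24 with HMB (at least 3.40, adjusted p = 6.03e-04) and differed by 2.08 without it.

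Of 22 matched osteoclast-associated genes 7 rose and 0 fell with HMB, 8 were called higher over the 8 arrays and 4 in LPS minus Ctrl. Over all probe sets 2.89% rose with HMB, and 2.08% and 0.509% were called higher in the other 2 comparisons. Of the 22, 8 were dim, among them the gelatinase Mmp9, which was at most 3.73 without LPS, 5.60 and 5.86 in LPS and 8.60 and 8.93 in HMB+LPS (adjusted p = 0.00184). The transcription factor Jdp2 rose by 2.0 ± 0.18 with HMB (at least 0.11, adjusted p = 0.00232). Nfatc1, the master transcription factor of osteoclast differentiation, differed by 0.08 ± 0.17 with HMB (adjusted p = 0.852), and Tnfrsf11a (RANK), the receptor of the osteoclast-inducing cytokine, by −0.64 ± 0.23 (adjusted p = 0.201). The mean log2 level of the list ran from 8.51 to 8.75 without LPS and from 9.86 to 10.24 with it. The 4 in LPS minus Ctrl became 1 without any 1 of Ctrl 5, Ctrl 6, LPS 3 and LPS 6, and 2 without either HMB+LPS array. The 7 calls became 5 with the fit of 8 means, within the 4 arrays with HMB alone, and without any 1 of these 4. The 8 calls over the 8 arrays became 5 without Ctrl 5, HMB 5, HMB 6 or HMB+LPS 5.

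Acute phase and antimicrobial genes held the largest riser of all named genes. Lcn2, which withholds iron from bacteria, was 7.94 and 8.07 in Ctrl 5 and 6, 8.93 and 8.83 in HMB 5 and 6, 15.21 and 15.24 in LPS 3 and 6, and 17.37 and 17.54 in HMB+LPS 5 and 6. It differed by 7.90 ± 0.27 over the 8 arrays (at least 6.27) and rose by 8.58 ± 0.17 with HMB (at least 7.14, adjusted p = 1.47e-05). Saa3, the serum amyloid A made by macrophages, was 9.70 and 9.99 in Ctrl, 11.84 and 11.89 in HMB, 14.92 and 14.90 in LPS, and 17.46 and 17.56 in HMB+LPS, and it rose by 5.65 ± 0.17 with HMB (adjusted p = 1.05e-04). Cfb, which forms the convertase of the alternative complement pathway, ran from 5.21 to 5.78 without LPS. It was 8.80 and 8.37 in LPS and 12.10 and 11.93 in HMB+LPS, a rise of 6.5 ± 0.25 with HMB (at least 1.71, adjusted p = 1.87e-04), but in LPS 3 and 6 it was under the limit. Mmp8, the neutrophil collagenase, rose by 5.06 ± 0.25 (at least 4.32, adjusted p = 3.09e-04) from 9.80 and 9.35 in HMB to 14.45 and 14.82 in HMB+LPS. In all, 6 of 19 matched genes rose (2.89% of all probe sets) and 0 fell with HMB, and 12 of the 19 were dim. LPS minus Ctrl called 4 of the 19 higher, beside 0.509% of all probe sets. Over the 8 arrays 7 were called higher, or 3 without HMB 5 and 4 without HMB 6 or HMB+LPS 5.

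Marco, a scavenger receptor for bacteria and particles, was 7.16 and 7.94 in Ctrl 5 and 6, 8.65 and 8.68 in HMB 5 and 6, 13.62 and 13.49 in LPS 3 and 6, and 15.81 and 15.97 in HMB+LPS 5 and 6. It differed by 6.61 ± 0.28 over the 8 arrays (at least 4.65) and rose by 7.22 ± 0.27 with HMB (at least 5.58, adjusted p = 1.87e-04). Susd2 was at most 6.20 without LPS, 11.34 and 10.72 in LPS, and 13.59 and 13.51 in HMB+LPS, a rise of 7.81 ± 0.34 with HMB (at least 3.24, adjusted p = 1.87e-04). Ms4a4c, a membrane protein of monocytes, ran from 8.68 to 9.63 without LPS and from 12.86 to 14.44 with it, and rose by 5.67 ± 0.23 with HMB (at least 4.08, adjusted p = 1.87e-04). Slc6a12 was at most 5.57 without LPS, 8.36 and 8.81 in LPS, and 10.68 and 11.03 in HMB+LPS, so only the HMB+LPS pair passed the limit (a rise of at least 0.54, adjusted p = 0.00252). LPS minus Ctrl called 2 of 27 scavenger and phagocytic receptors higher, beside 0.509% of all probe sets, and 0 lower. Of 27 scavenger and phagocytic receptors 9 rose and 2 fell with HMB, and the 9 became 3 without either HMB array and 4 without HMB+LPS 6.

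The usual M1-like messages were low. Il6, a secreted inflammatory cytokine, was 3.59 and 4.10 in LPS 3 and 6, 3.43 and 3.44 in HMB+LPS 5 and 6, and between 2.47 and 2.94 without LPS, and it was dim (adjusted p = 0.265). Il1b, the precursor of interleukin 1 beta, was 5.10 and 4.35 in Ctrl, 4.29 and 5.90 in HMB, 5.99 and 6.05 in LPS, and 8.80 and 8.84 in HMB+LPS. It was dim on all 8 arrays, as was Il1a, with an adjusted p of 0.0111 for Il1b and 0.00252 for Il1a. Arg1, an arginase that LPS and M2-like stimuli can both induce, did not exceed 4.80. Tnf, an early cytokine, was well above the limit everywhere, from 12.85 to 13.17 without LPS and from 12.50 to 12.91 with it, and its difference was −0.35 ± 0.18 with HMB (adjusted p = 0.37).

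Some genes of the M1-like programme did rise. Acod1, the enzyme that makes itaconate, was 10.91 and 11.05 in Ctrl, 10.72 and 10.66 in HMB, 13.63 and 13.07 in LPS, and 15.78 and 15.95 in HMB+LPS, a rise of 5.18 ± 0.22 with HMB (adjusted p = 1.87e-04) beside a difference of 2.37 without it. Ptgs2, the inducible cyclooxygenase, was 8.23 and 8.20 in Ctrl, 8.82 and 8.86 in HMB, 10.45 and 9.76 in LPS, and 12.80 and 12.88 in HMB+LPS (a rise of 4.0 ± 0.25, at least 2.53, adjusted p = 6.39e-04). Il1rn, the interleukin 1 receptor antagonist, rose by 3.01 ± 0.25 with HMB (adjusted p = 0.00204). Of 25 inflammatory cytokine genes 8 rose (2.89% of all probe sets) and 0 fell in HMB+LPS minus HMB, but 16 of the 25 were dim. LPS minus Ctrl called 2 of the 25 higher, beside 0.509% of all probe sets. The 8 became 5 without either HMB array and 4 without HMB+LPS 6.

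**Figure D3:**
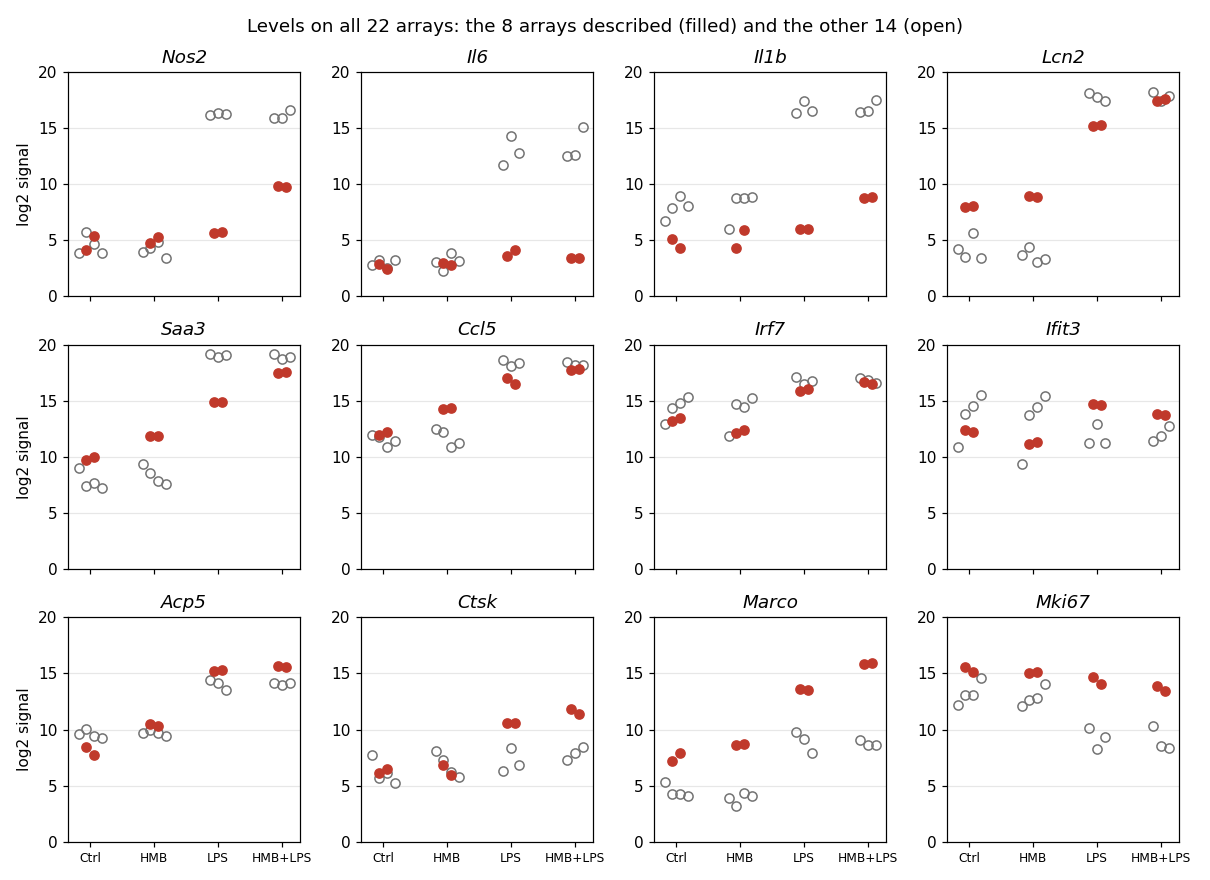
Each panel shows the log2 signal of 1 gene on all 22 arrays by group, with the 8 arrays described as filled red points and the other 14 as open points. Nos2, Il6 and Il1b stay low on the filled LPS and HMB+LPS arrays while the open ones are high, whereas Acp5, Ctsk and Marco are higher on the filled arrays with LPS than on the open ones, and among arrays with LPS Mki67 is highest on the filled ones.

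Chemokines were divided. Ccl5, which draws T cells and is induced by interferon regulatory factors and NF-kB, was 11.97 and 12.22 in Ctrl, 14.31 and 14.31 in HMB, 17.04 and 16.53 in LPS, and 17.73 and 17.82 in HMB+LPS, and it rose by 3.47 ± 0.22 with HMB (adjusted p = 7.08e-04). Ccl7, a monocyte chemoattractant, ran from 6.79 to 8.54 without LPS and from 9.73 to 10.95 with it (adjusted p = 6.03e-04 with HMB), and only the LPS pair passed the limit. Cxcl10, an interferon-inducible chemokine of activated T cells, was 10.08 and 9.59 in Ctrl, 8.21 and 8.69 in HMB, 9.82 and 10.07 in LPS, and 8.64 and 9.0 in HMB+LPS, so that its arms overlapped (adjusted p = 0.534). Cxcl9 was dim, at most 3.78 without LPS and 8.53 and 8.90 in HMB+LPS (adjusted p = 8.51e-04). Of 24 chemokine genes 9 rose and 1 fell with HMB, beside 2.89% and 2.72% of all probe sets, and 12 were dim. LPS minus Ctrl called 3 of the 24 higher, beside 0.509% of all probe sets. The 9 became 5 without either HMB array and 3 with the fit of 8 means.

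The receptor of LPS had like levels in both arms. Tlr4 was between 13.56 and 13.84 without LPS and between 13.46 and 14.05 with it, a difference of −0.11 ± 0.16 with HMB (adjusted p = 0.775). Cd14 differed by −0.11 ± 0.18 (adjusted p = 0.806). Ly96 rose by 1.26 ± 0.18 with HMB (adjusted p = 0.0117), as did the bacterial lipoprotein receptor Tlr2 by 1.42 ± 0.16 (adjusted p = 0.00551) and Irak3, an inhibitor of MYD88 signalling, by 0.94 ± 0.16 (adjusted p = 0.0221). Of 24 NF-kB subunits and feedback genes 12 rose and 2 fell with HMB, and in LPS minus Ctrl 1 was called higher. Over all probe sets these shares were 2.89%, 2.72% and 0.509%. Risers included Traf1, an adaptor of TNF receptors (10.71 and 10.67 in HMB+LPS against 7.20 and 7.58 in HMB, at least 0.38, adjusted p = 0.00213), the mitochondrial dismutase Sod2 (2.91 ± 0.16, adjusted p = 4.57e-04) and the stress gene Ier3 (2.92 ± 0.31, at least 1.64, adjusted p = 0.00464). The 12 became 4 without either HMB array, 7 without HMB+LPS 5 and 5 without HMB+LPS 6.

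Of 23 antigen presentation genes 8 rose and 0 fell with HMB, where 2.89% of all probe sets rose. Only 1 of the 23 was called higher in LPS minus Ctrl, beside 0.509% of all probe sets. Cd274 (PD-L1), the ligand of the inhibitory receptor PD-1, was 12.77 and 12.89 in Ctrl, 11.68 and 11.80 in HMB, 14.07 and 14.43 in LPS, and 14.78 and 14.90 in HMB+LPS. It rose by 3.10 ± 0.19 with HMB (adjusted p = 6.38e-04) and differed by 1.42 without HMB. The costimulatory ligand Cd80 rose by 1.52 ± 0.18 (at least 1.38, adjusted p = 0.00734), and the class I heavy chain genes H2-K1 and H2-D1 by 1.01 ± 0.16 and 1.29 ± 0.24 (adjusted p = 0.0191 and 0.0298). The class II gene H2-Ab1 rose by 2.14 ± 0.25 (at least 1.22, adjusted p = 0.00657), from 9.19 and 9.61 in HMB to 11.45 and 11.62 in HMB+LPS, while LPS 3 and 6, at 8.58 and 9.08, overlapped with Ctrl 5 and 6, at 8.41 and 8.68. The 8 calls became 1 without HMB 5, 3 without HMB 6 or HMB+LPS 5 and 2 without HMB+LPS 6.

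The level without LPS differed between Ctrl and HMB for several named genes, such as Ccl5, Saa3, Atp6v0d2 and Irf7, and this was not tested. Such starting levels enter the differences with and without HMB. The difference between both comparisons was fitted for every probe set. Since LPS 3 and LPS 6 had been chosen for their low Nos2, its values are a description, and 1 passed limma's threshold in the direction of a larger rise with HMB (0.0045%) and 0 in the other (2232 had an unadjusted p under 0.05). The 1 was Clec4n (Dectin-2), a receptor for fungal mannans. It was 15.47 and 15.48 in Ctrl, 12.61 and 12.37 in HMB, 15.58 and 15.63 in LPS, and 16.99 and 17.26 in HMB+LPS. Its rise with HMB was 4.64 ± 0.18 (adjusted p = 1.87e-04), its difference without HMB was 0.13, and the difference of both was 4.50. The call was lost when any 1 of the 8 arrays was left out, and a filter on dim probe sets raised the count to 488. Slc7a11, the cystine transporter of glutathione synthesis, was 15.01 and 14.58 in Ctrl but 11.51 and 10.71 in HMB, and with LPS it lay between 14.96 and 15.39 on all 4 arrays. Cd5l, a scavenger protein secreted by tissue macrophages, went from 13.09 and 12.91 in HMB to 9.30 and 8.75 in HMB+LPS, and from 10.84 and 11.02 in Ctrl to 11.58 and 12.11 in LPS. Neither gene was among the calls.

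Among lipid genes, the fatty acid binding protein Fabp5 rose by 2.98 ± 0.22 with HMB (adjusted p = 0.00119) and the cholesterol exporter Abca1, a target of the sterol receptor LXR, by 1.71 ± 0.20 (adjusted p = 0.00657). Pparg, a nuclear receptor of lipid handling, fell by 2.58 ± 0.19 (at least 0.89, adjusted p = 0.00129), from 11.07 and 11.03 in HMB to 8.42 and 8.53 in HMB+LPS. Hpgd, which degrades prostaglandins, was 11.28 and 11.48 in HMB and 9.03 and 7.08 in HMB+LPS, and fell by 3.33 ± 0.57 (at least 1.23, adjusted p = 0.0223). Of 19 glycolysis and hypoxia genes 6 rose (2.89% of all probe sets) and 0 fell with HMB. Among them Pfkfb3, which makes the allosteric activator of phosphofructokinase, was at 1.51 ± 0.18 (adjusted p = 0.00671). The list median was 0.72 with HMB and 0.18 in LPS minus Ctrl, where 0 of the 19 were called. The 6 became 0 within the 4 arrays with HMB alone, 3 without Ctrl 5 or Ctrl 6, 2 without HMB 5 or HMB+LPS 5, and 1 without HMB 6 or HMB+LPS 6. In the other lists, 4 of 14 arginine, nitric oxide and itaconate genes rose and 0 fell with HMB, 4 of 18 PPARg and LXR lipid genes rose and 3 fell, 5 of 21 amino acid response and NRF2 genes rose and 3 fell, 4 of 16 complement genes rose and 1 fell, and 5 of 14 macrophage identity markers rose and 1 fell. Called higher in LPS minus Ctrl were 0 of the amino acid response and NRF2 genes and 1 gene of each other list, and 0 were called lower. Among the macrophage identity markers F4/80 (Adgre1) rose by 1.12 ± 0.17 with HMB (adjusted p = 0.0157), and the fractalkine receptor Cx3cr1 fell by 2.10 (at least 1.67, adjusted p = 0.00993).

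Genes of mitosis were lower on the arrays with LPS. Over the 8 arrays 18 of 27 matched genes were called lower, beside 1.68% of all probe sets. For 22 of 27 the 4 LPS arrays lay all below the rest, beside 4.65% of all probe sets. Of 27 matched mitosis and G2/M genes, 24 fell and 0 rose in HMB+LPS minus HMB, where 2.72% of all probe sets fell, with a median of −1.42. In LPS minus Ctrl 0 were called at a median of −0.63, by the same limma fit in which 2320 probe sets had an unadjusted p under 0.05, and 18 were called lower with the filter on dim probe sets. Mki67, the proliferation marker Ki-67, was 15.56 and 15.16 in Ctrl, 15.03 and 15.17 in HMB, 14.72 and 14.08 in LPS, and 13.89 and 13.48 in HMB+LPS, and fell by 1.42 ± 0.28 with HMB (adjusted p = 0.0376). Cyclin B2 (Ccnb2) fell by 1.92 ± 0.17 (adjusted p = 0.00252) and Cdc20, an activator of the anaphase-promoting complex, by 1.80 ± 0.17 (at least 1.29, adjusted p = 0.00296). Of 22 DNA replication genes 11 fell and 0 rose with HMB, among them the helicase subunit Mcm5 (1.61 ± 0.25, adjusted p = 0.0177). Without HMB 0 of the 22 were called, at a median of −0.35. The mean log2 level of the mitosis list ran from 12.17 to 12.33 without LPS and from 10.70 to 11.81 with it. The 24 calls became 3 without HMB 5 or HMB 6, 5 without HMB+LPS 6, 15 without HMB+LPS 5, 5 within the 4 arrays with HMB and 0 with the fit of 8 means. The 11 DNA replication calls became 5 without Ctrl 5 or Ctrl 6, 3 without HMB+LPS 5 and 0 without HMB 5, HMB 6 or HMB+LPS 6.

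Of the genes that fell most over the 8 arrays, Cmah, the enzyme that hydroxylates sialic acid in mice, was 11.79 and 11.61 in Ctrl, 12.59 and 12.51 in HMB, 9.62 and 9.96 in LPS, and 7.80 and 6.97 in HMB+LPS, and fell by 5.16 ± 0.29 with HMB (at least 2.39, adjusted p = 5.50e-04). Cd34, a sialomucin of progenitor cells, went from 15.09 and 15.02 in HMB to 11.30 and 10.87 in HMB+LPS, and fell by 3.96 ± 0.25 (adjusted p = 6.83e-04). Bex6, Nes, Stxbp6 and Nanos1 met the same rule but were dim, with levels of at most 9.48.

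Markers of other cell types were examined as whole lists. All 9 mast cell and basophil markers and all 13 lymphocyte markers were dim, and 0 of either list was called in HMB+LPS minus HMB. Their mean log2 levels ran from 3.42 to 3.71 without and 3.40 to 3.95 with LPS, and from 3.84 to 4.38 and 3.97 to 4.22. Of 17 neutrophil and granulocyte precursor markers 14 were dim and 4 rose with HMB (Lcn2, Mmp8 and the dim Mmp9 and S100a8). The defining genes Elane and Mpo lay between 2.52 and 4.05 on all 8 arrays. Of 11 monocyte markers 9 were dim. With HMB 4 rose, namely Ms4a4c, the dim Ly6c1 and Hp, and the coagulation factor F10. F10 was 10.16 and 10.33 in HMB+LPS 5 and 6, close to their limits of 10.08 and 10.23. The 1 that fell was the dim sialoglycoprotein gene Spn (CD43), from 9.39 and 9.70 in HMB to 8.64 and 8.43 in HMB+LPS (adjusted p = 0.0405). The list mean went from 6.13 to 6.48 without LPS to 7.13 to 8.17 with it. Of 15 fibroblast markers 12 were dim and 1 rose (Thbs1, 1.74 ± 0.24, adjusted p = 0.0108). Of 13 dendritic cell markers 12 were dim and 1 rose. It was Bst2, which is also on the interferon-stimulated list (0.96 ± 0.20, adjusted p = 0.0448). Of 7 erythroid and megakaryocyte markers 0 passed, beside 1245 calls over all probe sets. In these bulk samples more cells of a type cannot be told apart from more RNA per cell, and the part of other cells in the results was not tested.

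How the response differed from that of the other arrays was tested with HMB, where both sides are set by number: HMB+LPS 5, 6 minus HMB 5, 6 against HMB+LPS 2, 3, 4 minus HMB 1, 2, 3, 4. The difference was more positive for 167 probe sets (0.752%) and more negative for 97 (0.437%). These shares are the background for all list counts of this comparison. The arrays also differed in the mean of positive minus that of negative controls. It was 3.78 in HMB 1, 4.43 to 5.26 in HMB 2 to 4 and 3.82 to 4.28 in HMB+LPS 2 to 4. In numbers 5 and 6 with HMB it was 4.70 to 5.00. The limit ran from 9.84 to 11.81 in the lower numbers with HMB and from 10.08 to 10.36 in numbers 5 and 6. The part of array quality in this test was not tested. In the lower numbers alone 1158 rose (5.21%) and 1579 fell (7.11%), or 1465 and 1314 with each array centred on its median. Of the 641 that rose with numbers 5 and 6, 305 also rose in the lower numbers (47.6% and 26.3% of the 2 lists) and 22 fell there, and of the 604 that fell 295 also fell (48.8% and 18.7%) and 6 rose. The count of 264 was 674 without HMB 1, 171 without HMB 2, 163 without HMB 3, 151 without HMB+LPS 3, 69 without HMB 5, 79 without HMB 6, 87 without HMB+LPS 5 and 86 without HMB+LPS 6.

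Many signals of the lower numbers were under their own limits, so the differences below are also given with every signal under its array's limit raised to it, as values with no test. The limits differ between arrays, so a gene under them on all of these arrays, such as Ifnb1, gets −0.57 in this way. Small raised values and their signs are therefore in part set by the limits. Of the inflammatory lists, 5 of 25 cytokine genes had a more negative difference and 1 a more positive one, and of 24 chemokine genes these were 6 and 1. Over all probe sets the shares were 0.437% and 0.752%. Of 24 NF-kB genes 3 were more negative, and of 19 acute phase genes 4, with 0 more positive in both. When any 1 of the 4 arrays numbered 5 and 6 was left out, 2 or 3 cytokine genes and 2 chemokine genes were more negative, the chemokine count was also 2 without HMB+LPS 3, and without HMB 1 it was 7 for cytokines and 7 for NF-kB genes. Ptgs2 went from 4.47 to 6.28 in HMB 1 to 4 up to between 16.38 and 16.98 in HMB+LPS 2 to 4, and the difference of both rises was −7.41 ± 0.60 (adjusted p = 2.04e-04), or −3.45 with signals raised to the limit. Lcn2 reached 17.44 to 18.20 in HMB+LPS 2 to 4, near the level of numbers 5 and 6, but started from 3.10 to 4.36 in HMB 1 to 4, and its difference was −5.62 ± 0.52 (adjusted p = 4e-04). Raised to the limit it was 0.03, so the difference of Lcn2 lies in starting levels under the limit. For Saa3 it was −4.95 ± 0.62 (adjusted p = 0.00272), with 18.76 to 19.13 in HMB+LPS 2 to 4, or −2.59 with signals raised to the limit. Ccl5, which was above the limit on all of these arrays, had a difference of −3.11 both ways (SE 0.59, adjusted p = 0.0283). Il6 reached 12.50 to 15.09 and Il1a 15.69 to 16.41 in HMB+LPS 2 to 4, against at most 8.73 for either in numbers 5 and 6 (adjusted p = 5.04e-04 and 0.00791). Their differences were −9.74 and −6.73, or −2.84 and −5.41 with signals raised to the limit.

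A few osteoclast-associated and scavenger genes had a more positive difference, 2 of 22 and 5 of 27, beside 0.752% of all probe sets. In either list 0 were more negative, beside 0.437%. The 2 became 1 and the 5 became 3 with centring on array medians or quantile normalization. They were 5 and 7 without HMB 1, and 1 and at most 3 without HMB 3, HMB+LPS 3 or any 1 of the 4 arrays numbered 5 and 6. The 2 also became 1 without HMB 2 or HMB+LPS 2, and the 5 also became 3 without HMB 4. Atp6v0d2 fell in the lower numbers, from 12.15 to 14.72 in HMB 1 to 4 down to between 10.39 and 10.69 in HMB+LPS 2 to 4, while it rose in numbers 5 and 6, and the difference was 6.74 ± 0.78 (adjusted p = 0.00149), or 5.60 with signals raised to the limit. Ctsk lay between 7.27 and 8.46 in HMB+LPS 2 to 4, and its difference was 4.14 ± 0.86 (adjusted p = 0.0442), or 0.87 with signals raised. Marco lay between 8.59 and 9.11 there, with a difference of 2.34 ± 0.48 (adjusted p = 0.0427), or 5.17 with signals raised. Acp5 rose in both, by 4.37 in the lower numbers to between 13.95 and 14.12, and its difference of 0.86 ± 0.36 did not pass (adjusted p = 0.356, or 1.87 as a value with signals raised). The macrophage growth factor Csf1 rose with HMB in numbers 5 and 6 by 2.77 ± 0.22, from 10.72 and 10.52 in HMB. It lay between 11.15 and 11.97 in HMB 1 to 4 and between 11.25 and 11.53 in HMB+LPS 2 to 4. The difference was 2.88 ± 0.43 (adjusted p = 0.00738), or 2.81 with signals raised. Without HMB, Csf1 was 12.42 and 12.48 in Ctrl 5 and 6 and 12.87 and 12.68 in LPS 3 and 6, a difference of 0.33.

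None of the 37 interferon-stimulated genes and none of the 12 GTPases passed this test in either direction, in a fit with 2677 probe sets at an unadjusted p under 0.05. Without HMB 1, 7 interferon-stimulated genes and 2 GTPases had a more positive difference, and without HMB+LPS 2 it was 1 interferon-stimulated gene. Ifit3 had a difference of 3.76 ± 1.79 (adjusted p = 0.444, or 4.35 as a value with signals raised), and the size of that error goes with its levels of 9.37 to 15.44 in HMB 1 to 4. Of 27 mitosis genes 4 had a more positive difference (1 when any 1 of the 4 arrays numbered 5 and 6 was left out, 2 without HMB 2, HMB 3 or any 1 of HMB+LPS 2 to 4, and 7 without HMB 1), as did 1 of 14 macrophage identity markers and 0 of 22 DNA replication genes. Ube2c, a mitotic ubiquitin-conjugating enzyme, was 2.44 to 3.05 in HMB+LPS 2 to 4 and 11.66 and 10.89 in HMB+LPS 5 and 6 (difference 6.85 ± 0.48, adjusted p = 1.19e-04). Its signals in HMB+LPS 2 to 4 were far under the limit, and raised to the limit the difference was −1.29, so its sign rests on signals under the limit. The mannose receptor Mrc1 was 4.28 to 6.41 in HMB+LPS 2 to 4 and 10.40 and 10.36 in HMB+LPS 5 and 6 (difference 7.01 ± 0.76, adjusted p = 0.0012, or 1.27 with signals raised). Over the other 14 arrays, HMB or not, the mean log2 level of the mitosis list was 8.91 to 10.88 without LPS and 5.68 to 6.82 with it, and that of the fibroblast list was 8.34 to 9.65 without LPS, against 6.45 to 7.23 on the 4 arrays without LPS described here. The part of these differing starting levels in the test was not tested.

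**Figure D4:**
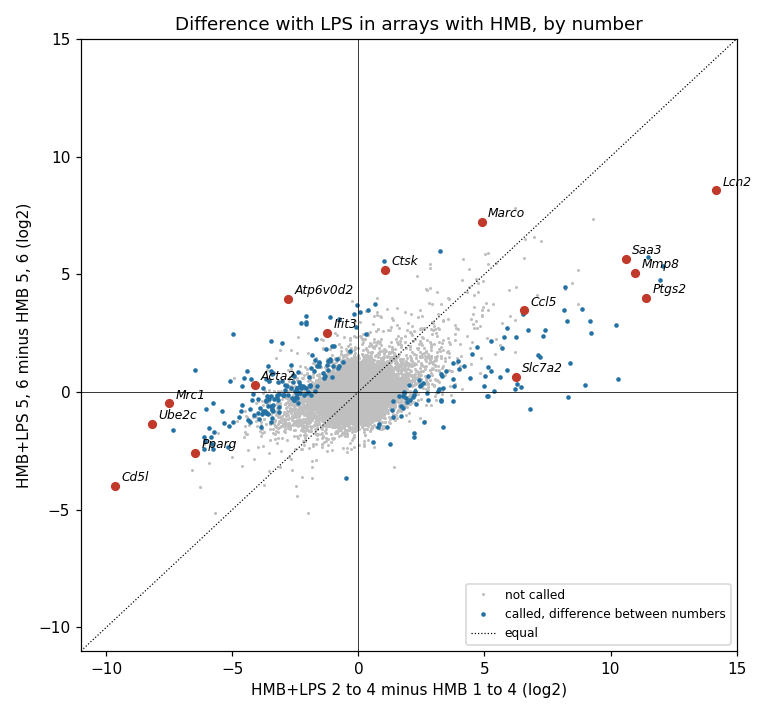
Each point is 1 tested probe set, with the log2 difference HMB+LPS 2 to 4 minus HMB 1 to 4 on the horizontal axis and HMB+LPS 5, 6 minus HMB 5, 6 on the vertical axis. Blue points passed the test of the difference between the 2 axes, red points are named genes, and the dotted line marks equal differences; Lcn2, Saa3, Mmp8 and Ptgs2 lie below that line, and Atp6v0d2, Ctsk, Marco, Mrc1 and Ube2c above it.

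Set side by side, the list medians of numbers 5 and 6 with HMB were 1.00 for interferon-stimulated genes, 0.97 for GTPases, 0.86 for osteoclast-associated genes, 0.89 for chemokines and −1.42 for mitosis genes. In the lower numbers with HMB they were 0.52, 0.72, 0.37, 2.67 and −3.17. For the cytokine list they were 0.30 and 1.48, and 16 of its 25 genes were dim on the 8 arrays. Signals under the limits were not raised in these medians. The mean log2 level of the mitosis list in HMB+LPS 2 to 4 was 5.68 to 6.77, under limits of 10.70 to 11.45. The size of its median there, and how it compares with numbers 5 and 6, therefore rests in part on signals under the limit. With dim genes left out, the list medians of numbers 5 and 6 became 1.04 for interferon-stimulated genes, 1.06 for GTPases, 0.53 for osteoclast-associated genes and 5.06 for the 7 of 19 acute phase genes that were not dim, whose median with dim genes was 0.70.

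**Figure D5:**
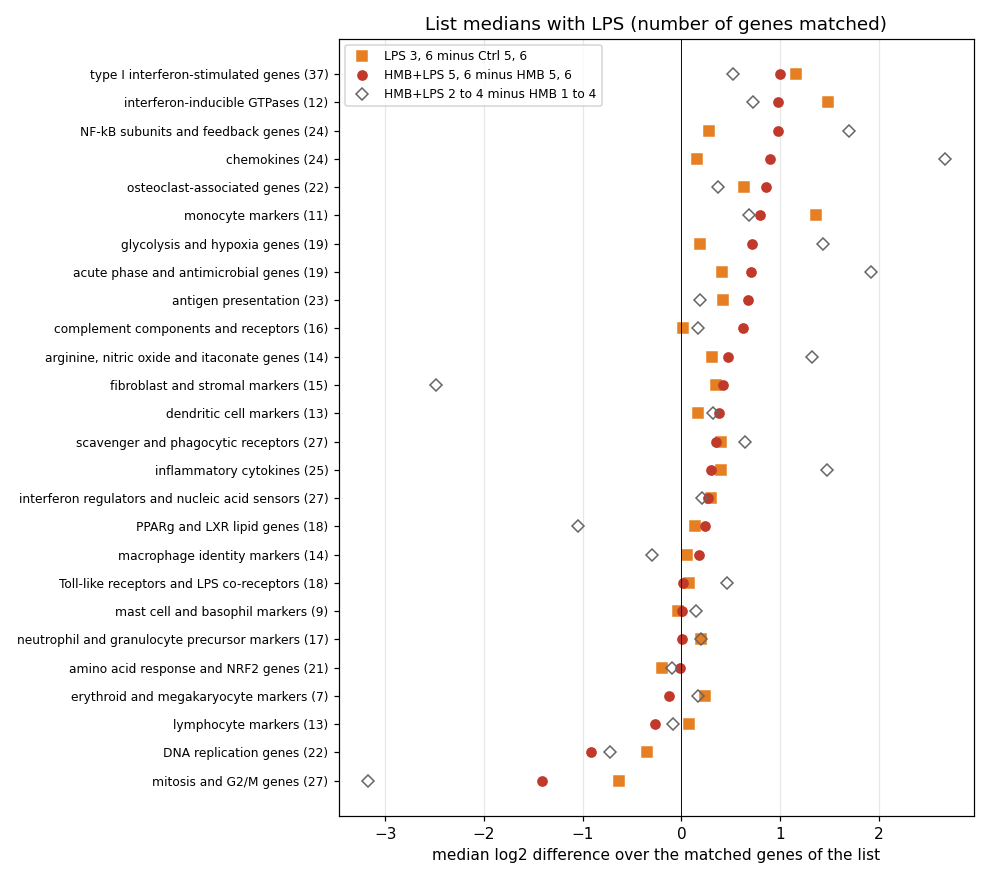
Points give the median log2 difference with LPS over the matched genes of each list (number in brackets), for LPS 3, 6 minus Ctrl 5, 6 (squares), HMB+LPS 5, 6 minus HMB 5, 6 (filled circles) and HMB+LPS 2 to 4 minus HMB 1 to 4 (open diamonds). Dim genes are kept in these medians, and signals under the limits, such as most of the mitosis list in HMB+LPS 2 to 4, were not raised. The circle of type I interferon-stimulated genes lies at 1.00, while the diamonds lie farthest right for chemokines and farthest left for mitosis genes.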

How the data were processed

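RNA of 22 BMDM cultures was measured on Clariom S arrays, of which 8 are described. The authors deposited 1 log2 value per probe set and array. Software and normalization behind these values: not given in the sources used here. Values were used as deposited, after 6640 control probe sets had been left out, and 22206 probe sets were tested. Of these, 19572 have 1 gene symbol in the platform annotation and 2634 were left unnamed. Where a gene had several probe sets, the one with the highest mean over all arrays was taken. The number of arrays limits the precision.

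Differences were fitted with limma 3.58.1 (R 4.3.3) and empirical Bayes, with Benjamini-Hochberg adjustment over all tested probe sets and a threshold of 0.05. The 4 arrays with LPS were compared with the 4 without, with HMB as a term (5 residual degrees of freedom). HMB+LPS minus HMB, LPS minus Ctrl and their difference came from 4 group means over the 8 arrays (4 degrees of freedom), and the comparison with lower numbers came from the 11 arrays with HMB (7). The fits were tested on simulated data. Arrays, members and the 26 gene lists were chosen with earlier results of these data known. Of 515 list genes, 473 were matched. The 114 genes named by rule are a set of M1-like, interferon and osteoclast genes, the members of each list with the smallest p in HMB+LPS minus HMB (4 at most), those with the largest positive (12) and negative (8) differences over the 8 arrays among called genes whose arms did not overlap, and the 5 with the smallest p on each side of the comparison with lower numbers. A gene of that set is not reported here. Ifi27, Ifi27l2a, Ifi35, Ifi44l, Slfn8, Samd9l, H2-K1, H2-D1, Jdp2, Nfatc1, Tnfrsf11a, Tlr9 and the cell type markers were named as members of their lists after their values were seen.

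The alternatives were no HMB term, a fit of 8 means over all 22 arrays, the 4 arrays with HMB alone, quantile normalization, centring on array medians, a filter on dim probe sets, an intensity trend, the label number as a block, the methods' t-test, HMB 2 to 4 alone as lower numbers, and each array left out in turn. Promoter windows were taken from RefSeq (GRCm38.p6).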

Additional observations from a re-analysis of the deposited data

Results flagged for a closer look

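In 4 of the 8 arrays at a time, a single array stood apart from the other 3 of its arm in 5 of 228 pairs of gene and arm (2.19%). These were Ifnb1 at 2.80 in HMB+LPS 5, Ly6c1 at 5.90 in Ctrl 5, Ly96 at 14.91 in LPS 3, S100a8 at 4.90 in HMB 5 and Vegfa at 10.93 in HMB 5. Each arm pools arrays with and without HMB, so the rate of 1 in 20 that holds for 1 population is no measure here. Ifnb1, Ly6c1 and S100a8 were dim.

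The fitted effect of LPS differed between arrays with and without HMB for Clec4n, by 4.50 (log2, limma with Benjamini-Hochberg adjustment). LPS 3 and LPS 6 were chosen for their low Nos2, so this value is a description.

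With HMB, the effect of LPS in numbers 5 and 6 differed from that in the lower numbers for 26 named genes by limma with the same adjustment, where 0.752% of all probe sets had a more positive difference and 0.437% a more negative one. Nos2 is left out, as it chose LPS 3 and LPS 6. Up to 5 genes on each side were named for their small p in this comparison, so the count is in part set by that choice. Each difference is followed by the value with signals under each array's limit raised to it, which has no test.

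The difference was more positive for Atp6v0d2 (6.74, raised 5.60), Ctsk (4.14, raised 0.87), Marco (2.34, raised 5.17), Csf1 (2.88, raised 2.81), Mrc1 (7.01, raised 1.27) and Cd5l (5.66, raised 1.05). It was also more positive for Pparg (3.90, raised 0.37), the sorting receptor Sorl1 (4.85, raised 0.21), the smooth muscle actins Acta2 (4.41, raised 1.79) and Actg2 (5.53, raised −0.57), Ccnb2 (3.92, raised −0.87) and Ube2c (6.85, raised −1.29).

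The difference was more negative for Il6 (−9.74, raised −2.84), Arg1 (−8.68, raised −2.24), the matrix proteoglycan Dcn (−8.56, raised −1.81), Ptgs2 (−7.41, raised −3.45), Il1a (−6.73, raised −5.41), the integrin Itgb8 (−6.24, raised −1.01) and Mmp8 (−5.92, raised −1.94). It was also more negative for Lcn2 (−5.62, raised 0.03), the arginine transporter Slc7a2 (−5.60, raised −4.38), Saa3 (−4.95, raised −2.59), Arg2 (−4.93, raised −0.95), Ccl5 (−3.11 both ways), Jak2 (−2.65 both ways) and the chemokine Pf4 (−2.61, raised −2.53).

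Il6, Arg1, Dcn, Il1a, Itgb8, Arg2 and Actg2 were dim on the 8 arrays. With signals raised the sign turned for 4 genes (Ube2c, Ccnb2, Actg2 and Lcn2) and was kept for the other 22. A gene under the limits on all of these arrays, such as Ifnb1, gets −0.57, since the limits differ between arrays. Actg2 has just that value, so its turn of sign reflects the limits alone. Where signals were raised, the limits also enter the other values, so small raised values and their signs are uncertain. Acta2 was 8.26 to 8.77 in HMB+LPS 2 to 4 and 12.60 and 13.15 in HMB+LPS 5 and 6, from 12.21 to 12.75 in all 6 HMB arrays. Dcn was 12.02 to 12.78 in HMB+LPS 2 to 4 and at most 4.34 in HMB+LPS 5 and 6.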

How the results depend on the processing

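Quantile normalization and centring on array medians moved no count on the 8 arrays by over 1.5 times. The 835 calls of LPS minus none became 265 without an HMB term, 269 with a fit of 8 means over all 22 arrays, 1674 with a filter on dim probe sets, 1981 with an intensity trend, 102 with the methods' t-test after adjustment (2767 unadjusted), and 226 to 627 with 1 array left out. The 1245 of HMB+LPS minus HMB became 339 within those 4 arrays, 239 with 8 means, 2198 with the filter, 2725 with the trend and 289 to 1036 with 1 array left out. The 123 of LPS minus Ctrl became 21, 701 and 765 with 8 means, the filter and the trend, and 6 to 61 with 1 array left out, and the 1 of the difference between both comparisons became 5, 488, 529 and 0. The 264 against lower numbers became 416 with the filter, 674 with HMB 2 to 4 alone and 69 to 674 with 1 array left out, and the 2737 of the lower numbers 1803 to 3701. With centring, the median of all probe sets moved by over 0.1 in the lower numbers (from −0.0062 to 0.11) and in the comparison with them (from 0.0015 to −0.12). The filter tests fewer probe sets and the subsets have fewer arrays. The cause was not tested otherwise.

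The label numbers share no source that the labels name. With the label number as a block, 160 calls were made in LPS minus none and 394 in HMB+LPS minus HMB. LPS 3 had no partner of its number among the arrays described, so its block term took up its whole value. LPS minus none was therefore fitted in effect without LPS 3, and its count does not show the effect of pairing alone. For LPS minus Ctrl and the difference of both comparisons, LPS 6 was then the only LPS array left, so no count is given. Deviations of equal numbers had r = −0.0323 for HMB and HMB+LPS, 0.0036 for Ctrl and HMB and −0.013 for Ctrl and HMB+LPS.

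Of 95 calls on named genes in HMB+LPS minus HMB, 48 were lost with 8 means, 26 within the 4 arrays and 23 with the block, and 0 changed sign. Up to 4 genes of each list were named for their small p in this comparison. The lack of sign changes is in part set by that choice. Genes that did not pass changed sign without 1 array: Cd14 ran from −0.23 to 0.009, and adjusted p ran from 0.203 to 0.916 for Arg1, 0.500 to 0.958 for Dcn, 0.421 to 0.966 for Ifnb1 and 0.432 to 0.927 for Itgb8.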
